A study of Mus musculus with 24 samples.

Results

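Immunoglobulin variable (V) segments are the germline gene pieces that encode most of the variable domain of an antibody. The members were the rows of the gene count table whose symbol starts with Ighv, Igkv or Iglv and whose counts over the 24 libraries add up to 50 or more. This rule took 345 of the 348 V rows and of the 55401 genes in all. They comprised 185 heavy chain segments on chromosome 12, 157 kappa segments on chromosome 6 and 3 lambda segments on chromosome 16. GENCODE M21 annotates 218 of the members as functional V genes and 127 as V pseudogenes, and the 3 rows left out are kappa pseudogenes. Just outside the rule were Igkv13-61-1, Igkv13-57-1 and Igkv13-74-1 with totals of 27, 40 and 43 counts, and just inside were Igkv2-95-2, Igkv13-55-1 and Igkv13-54-1 with 50, 52 and 53. The members were thus chosen by their total counts over all libraries, so levels are given as a description, and the rule used neither age nor tissue. The symbols Ighv1-13 and Ighv5-8 each stand on 2 rows with different gene identifiers.

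The libraries hold ribosome-depleted total RNA of 3 organs, the heart's left ventricle, skeletal muscle and kidney, taken from 8 C57BL6/J mice for which the labels name no transgene or treatment. Mice 14 and 15 (females) and 19 and 20 (males) were 16.5 weeks old, and mice 11 and 12 (females) and 14 and 17 (males) were 86 weeks old. Number 14 occurs at both ages and names different mice. Each mouse gave 1 library per tissue, so each of the 6 groups holds 4 mice, and the study compared the ages within each tissue. Which muscle and which region of the kidney were taken is not stated.

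A V segment is silent or nearly so in cells other than B cells. During B cell development 1 heavy chain V segment is joined to D and J segments, and 1 kappa or lambda V segment to a J segment, and the joined exon is then spliced to a constant exon. A clone of B cells or plasma cells therefore uses 1 heavy and 1 light V segment, and plasma cells, which secrete antibody, hold far more immunoglobulin RNA than resting B cells. V pseudogenes cannot encode an antibody chain. In bulk tissue RNA the mix of V segments depends on which antibody-producing cells are present and how much RNA each contributes. Counts per V segment do not identify clones, since they hold no joined sequence and do not pair heavy with light chains. Fewer cells and less RNA per cell cannot be told apart.

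The segments that carried the results are shown by the last 150 bases of their annotated transcripts (GENCODE M21, GRCm38), 5′ to 3′, so that near-identical copies can be compared. Capitals mark the codons for tyrosine, 1 further residue and cysteine near the 3′ end of a V segment. They were found by searching the last 60 bases, on the transcript strand only, for a 9-base motif that covers these codons. Of the functional segments 96.3% (210 of 218) hold such a match, of all 130 V pseudogene rows 60.8%, and of 141079 other transcripts 7.03%. The cysteine is the conserved residue that precedes the third complementarity-determining region. Coordinates are those of the whole gene, and the stretch shown lies in its V exon.
The first pair is shown because both passed the test for age in muscle and their letters are nearly the same:
Igkv6-20: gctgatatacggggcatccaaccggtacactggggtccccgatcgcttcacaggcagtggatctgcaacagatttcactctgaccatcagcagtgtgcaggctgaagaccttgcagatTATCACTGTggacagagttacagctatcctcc
Igkv6-29: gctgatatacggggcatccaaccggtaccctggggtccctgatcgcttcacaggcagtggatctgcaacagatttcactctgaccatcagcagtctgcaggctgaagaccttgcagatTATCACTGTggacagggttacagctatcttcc
They are Igkv6-20 at chr6:70335841-70336507 (minus strand) and Igkv6-29 at chr6:70138462-70139110 (minus strand). Over 375 aligned bases the pair was 98.7% identical, and 64.1% of the 50-base windows of Igkv6-20 also occur in Igkv6-29. Of the Igkv6-20 windows 35.9% occur in no other V segment, so how reads divided between these 2 segments is uncertain.
The next 3 passed the test for age in kidney with less shared sequence:
Igkv4-57-1: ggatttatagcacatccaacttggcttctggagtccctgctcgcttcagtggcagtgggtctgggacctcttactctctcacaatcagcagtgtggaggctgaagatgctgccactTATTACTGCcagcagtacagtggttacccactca
Ighv1-64: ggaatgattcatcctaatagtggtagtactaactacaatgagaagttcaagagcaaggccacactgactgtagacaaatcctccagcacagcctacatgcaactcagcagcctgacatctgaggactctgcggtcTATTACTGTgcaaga
Ighv5-17: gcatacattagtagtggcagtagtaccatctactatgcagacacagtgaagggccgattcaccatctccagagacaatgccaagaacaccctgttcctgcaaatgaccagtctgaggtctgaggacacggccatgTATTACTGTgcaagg
They are Igkv4-57-1 at chr6:69544359-69544907 (minus strand), Ighv1-64 at chr12:115507545-115508031 (minus strand) and Ighv5-17 at chr12:113859149-113859670 (minus strand). Of their 50-base windows 71.0, 66.6 and 85.1% occur in no other V segment. Ighv1-64 is 95.7% identical to Ighv1-62 over 350 bases, so how reads divided between these is uncertain as well.
The following 3 made up the largest shares of the V counts in the kidney of 86-week mouse 12:
Igkv1-110: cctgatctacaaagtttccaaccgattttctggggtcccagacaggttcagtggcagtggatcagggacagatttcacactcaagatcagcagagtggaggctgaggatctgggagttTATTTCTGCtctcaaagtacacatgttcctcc
Ighv1-18: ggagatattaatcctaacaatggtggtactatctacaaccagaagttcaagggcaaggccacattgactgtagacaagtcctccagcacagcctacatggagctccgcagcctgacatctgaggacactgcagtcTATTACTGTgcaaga
Igkv3-2: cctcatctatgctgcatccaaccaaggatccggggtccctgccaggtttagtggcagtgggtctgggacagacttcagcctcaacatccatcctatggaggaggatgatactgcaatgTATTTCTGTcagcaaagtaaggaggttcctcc
They are Igkv1-110 at chr6:68270485-68271267 (plus strand), Ighv1-18 at chr12:114682632-114683065 (minus strand) and Igkv3-2 at chr6:70698449-70699067 (plus strand). Igkv1-110 is 97.5% identical to Igkv1-117 over 401 bases.
A heavy and a kappa segment that led in the muscle of 86-week mouse 11 follow:
Ighv11-2: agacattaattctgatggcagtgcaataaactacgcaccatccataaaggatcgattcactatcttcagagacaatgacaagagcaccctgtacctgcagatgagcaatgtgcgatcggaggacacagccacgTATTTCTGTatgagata
Igkv14-126: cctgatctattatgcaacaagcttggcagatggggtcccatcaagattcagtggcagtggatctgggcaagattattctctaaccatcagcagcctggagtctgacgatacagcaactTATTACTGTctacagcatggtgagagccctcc
They are Ighv11-2 at chr12:114048241-114048812 (minus strand) and Igkv14-126 at chr6:67896172-67896642 (plus strand). This combination is known from antibodies of B-1a cells, a self-renewing B cell subset, that bind phosphatidylcholine. Whether the 2 segments came from the same cells here was not tested. Ighv11-2 is 98.9% identical to Ighv11-1 over 353 bases.
A kappa and a lambda segment led in the kidney of 16.5-week mouse 20:
Igkv5-45: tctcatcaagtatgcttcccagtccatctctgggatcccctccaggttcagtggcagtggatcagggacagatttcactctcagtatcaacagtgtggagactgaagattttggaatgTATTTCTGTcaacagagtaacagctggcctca
Iglv1: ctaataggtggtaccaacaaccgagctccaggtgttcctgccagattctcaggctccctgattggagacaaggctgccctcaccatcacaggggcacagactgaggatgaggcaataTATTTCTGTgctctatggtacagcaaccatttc
They are Igkv5-45 at chr6:69775750-69776344 (minus strand) and Iglv1 at chr16:19085017-19085500 (minus strand). Igkv5-45 is 98.4% identical to Igkv5-43 over 379 bases. Over all functional segments a median of 77.8% of the 50-base windows occurred in no other V segment, and in 28 of 218 fewer than 50% did.

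Total counts ran from 52602585 to 103797551 per library, of which V segments took 0.00201 to 0.0224%. The tissue markers Myh6 and Tnnt2 (left ventricle), Myh4 and Ckm (skeletal muscle) and Umod and Slc34a1 (kidney) were higher in the labelled tissue than in the others in all 24 libraries. The muscle library of 86-week mouse 17 also held left ventricle markers at a summed 398 CPM (a gene's counts scaled to the TMM-normalised library total), against 8.10 to 15.2 in the other 7 muscle libraries. The muscle library of 16.5-week mouse 19 held kidney markers at 35.2 CPM. The kidney library of 86-week mouse 12, which had the highest V level, held left ventricle markers at 33.1 CPM against 5.46 to 11.5 in the other 7 kidneys, and red blood cell markers at 683 CPM against 303 to 580. The part of these markers in the V segment results was not tested.

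Most V rows were near the level of segments that cannot encode antibody. V pseudogenes summed to 0.172 to 0.360 CPM per exon kilobase over the 24 libraries, which was 1.24 to 1.82 times the level of 1404 olfactory receptor genes, a family with little expression outside the nose. At that level a functional segment of mean length would collect 4.48 to 9.16 counts per library. The median member had a total of 188 counts over 24 libraries (228 for functional segments and 137 for pseudogenes), and 28 members reached 500 counts. The pseudogene level of the same library was therefore used as a baseline, a choice made after seeing the data.

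Functional segments in the left ventricle lay at this baseline at both ages. Their level per kilobase over that of V pseudogenes was 0.896, 0.964, 0.935 and 1.15 in 16.5-week mice 14, 15, 19 and 20. It was 0.993, 1.10, 1.13 and 1.002 in 86-week mice 11, 12, 14 and 17. In skeletal muscle the ratios were 0.998, 1.08, 1.33 and 1.01 at 16.5 weeks and 1.80, 2.23, 1.63 and 1.02 at 86 weeks, in the same order of mice. Of the aged muscles 3 lay above every young one, and mouse 17 lay among the young. In kidney the ratios were 1.27, 1.43, 1.28 and 2.998 at 16.5 weeks and 3.05, 10.7, 2.87 and 2.57 at 86 weeks. Young mouse 20 lay within the range of the aged kidneys, and aged mouse 12 stood far above all others.

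**Figure D1:**
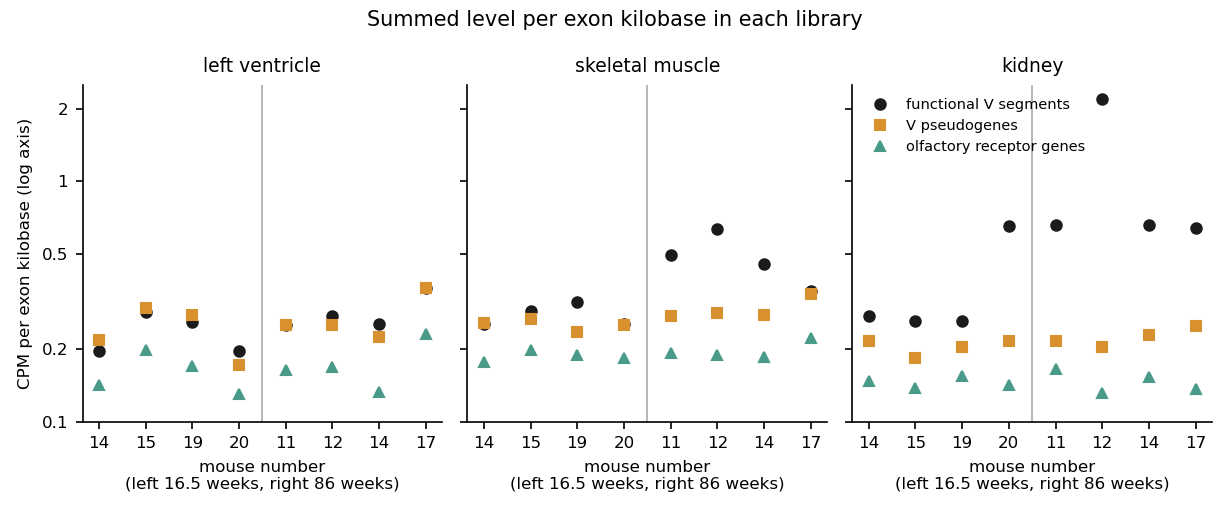
Summed level of functional V segments (black circles), V pseudogenes (orange squares) and olfactory receptor genes (green triangles) in CPM per exon kilobase, on a log axis, with 1 point per library and the 16.5-week mice to the left of the grey line in each panel. Functional segments overlay the pseudogenes in left ventricle and lie furthest above them in 3 aged muscles, 4 aged kidneys and the kidney of 16.5-week mouse 20.

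The summed V level was higher with age in muscle and kidney by 1.53-fold and 2.28-fold, with no overlap between ages, and neither difference passed after adjustment. In muscle the sums were 31.3, 34.4, 35.1 and 31.0 CPM at 16.5 weeks and 51.1, 62.5, 47.9 and 42.2 CPM at 86 weeks. In kidney they were 31.1, 28.7, 29.5 and 61.0 CPM at 16.5 weeks and 61.7, 184, 62.2 and 61.6 CPM at 86 weeks. Young mouse 20 lay just under the lowest aged kidney. In left ventricle they were 24.96, 35.4, 32.5 and 23.0 CPM against 30.8, 32.7, 29.8 and 44.0 CPM, a 1.19-fold difference with overlapping groups. These sums include baseline counts. The pseudogene level in muscle was itself without overlap, at 0.236 to 0.267 CPM per exon kilobase in young and 0.274 to 0.340 in aged mice. Aged mouse 17 had the highest, 0.340, with functional segments at 1.02 times that level. In kidney the pseudogene levels overlapped (0.183 to 0.217 and 0.205 to 0.249). The exact permutation test of log2 sums (two-sided, 4 against 4 mice) gave p = 0.0286 in muscle and in kidney, the smallest p this design allows, and p = 0.257 in left ventricle. Adjusted over the 6 tests of sums and diversity by age these were 0.0857, 0.0857 and 0.257. For the ratio over pseudogenes the age difference was 1.47-fold in muscle and 2.42-fold in kidney, each with an exact permutation p of 0.0857 (adjusted 0.129 over 3 tests), and 1.07-fold in left ventricle (p = 0.286, exact). Without the muscle library that held left ventricle markers the muscle ratio differed 1.71-fold with no overlap, and without young mouse 20 the kidney ratio differed 2.97-fold with no overlap (exact permutation, adjusted p = 0.0857 each). Without aged mouse 12 the folds were 1.32 in muscle and 1.73 in kidney (exact permutation, adjusted p = 0.300 each).

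Between tissues the ratio over pseudogenes was higher in kidney than in left ventricle in 8 of 8 mice, by 2.49-fold (exact sign-flip permutation test, p = 0.00781, adjusted 0.0234 over 3 tests). It was higher in kidney than in muscle in 7 of 8 mice, by 1.91-fold (permutation p = 0.0156, adjusted 0.0234). Muscle exceeded left ventricle in 7 of 8 mice by 1.31-fold (permutation p = 0.0391, adjusted 0.0391), a difference that missed the threshold in 7 of the 8 tests that left out 1 mouse. For the summed level the folds were 1.73, 1.32 and 1.31 for the same 3 pairs, with adjusted permutation p of 0.0703, 0.0938 and 0.0703.

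4 V segments rose with age in kidney, all of them functional. They were the kappa segments Igkv6-20 and Igkv4-57-1 and the heavy chain segments Ighv1-64 and Ighv5-17. They were 4 of 231 members with enough counts to be tested, and of all 44572 genes tested 0.0583% were called higher, 0.0538% lower and 0.112% in either direction. A call here is an adjusted p under 0.05 in edgeR's quasi-likelihood test with terms for age and sex, with Benjamini-Hochberg adjustment over all genes. At an unadjusted p under 0.05 the members counted 75 of 231, where 7.96% of all genes did.

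Ighv1-64 had 7, 5, 10 and 17 counts in the kidneys of 16.5-week mice 14, 15, 19 and 20, and 33, 69, 71 and 76 counts in those of 86-week mice 11, 12, 14 and 17. All 4 aged kidneys lay above all young ones. The means were 0.122 ± 0.0671 and 0.684 ± 0.215 CPM (SD, n = 4), and the log2 change was 2.55 ± 0.35 (SE, edgeR adjusted p = 0.0180). It passed in all 8 fits that left out 1 mouse, with adjusted p up to 0.0465. In muscle it had 5, 11, 11 and 7 counts at 16.5 weeks and 35, 45, 17 and 19 at 86 weeks, a log2 difference of 1.47 ± 0.42 that did not pass (edgeR adjusted p = 0.627).

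Igkv4-57-1 had 8, 4, 23 and 40 counts in the young kidneys and 21, 225, 154 and 436 in the aged ones. Aged mouse 11 lay within the range of the young mice, and mouse 17 had the highest value. The means were 0.234 ± 0.208 and 2.29 ± 1.88 CPM (SD, n = 4), with a log2 change of 3.44 ± 0.58 (edgeR adjusted p = 0.0397). The edgeR adjusted p rose to 0.117, 0.0829 and 0.122 without 16.5-week mouse 14, 15 or 19, and to 0.151 without 86-week mouse 17.

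Igkv6-20 had 7, 5, 3 and 19 counts in the young kidneys and 400, 360, 52 and 28 in the aged ones, with no overlap. The level was high in aged mice 11 and 12 and much lower in mice 14 and 17. The means were 0.107 ± 0.0922 and 2.32 ± 2.19 CPM (SD, n = 4), and the log2 change was 3.91 ± 0.68 (edgeR adjusted p = 0.0439). It passed without 16.5-week mouse 20 or without 86-week mouse 17 and missed the threshold in the other 6 such fits, where the edgeR adjusted p was up to 0.191.

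Ighv5-17 had 13, 9, 4 and 10 counts in the young kidneys and 30, 145, 49 and 58 in the aged ones, again with no overlap. The means were 0.113 ± 0.0455 and 0.778 ± 0.570 CPM (SD, n = 4), and the log2 change was 2.79 ± 0.46 (edgeR adjusted p = 0.0337). In 6 of the 8 fits without 1 mouse it missed the threshold, with an edgeR adjusted p up to 0.143 without 86-week mouse 12. Igkv3-2 lay just outside with 3, 5, 12 and 24 counts against 353, 1017, 146 and 42, a log2 difference of 4.45 ± 0.79 (edgeR adjusted p = 0.0515).

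The count of kidney calls depended on single mice and on the fit. Without 16.5-week mouse 14, 15 or 19 it was 1, without 86-week mouse 14 it was 2, and without 16.5-week mouse 20, the young mouse with the high V level, it was 11. Over all genes the calls in these 5 fits were 19, 25, 23, 22 and 62, against 50 in the main fit. With no term for sex, or with no filter on low counts, no member passed. Of all genes 0 of 44572 passed with no term for sex and 1 of 55176 with no filter.

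In skeletal muscle the near-identical kappa segments Igkv6-20 and Igkv6-29 rose with age. They were 2 of 173 members tested, where 0.0137% of 43711 genes were called higher, 0.00458% lower and 0.0183% in either direction, and 22 members had an unadjusted p under 0.05, as 5.51% of all genes did. Igkv6-20 had 7, 12, 0 and 5 counts at 16.5 weeks and 245, 231, 48 and 9 at 86 weeks. The value of aged mouse 17 lay among the young ones. The means were 0.0947 ± 0.0723 and 1.72 ± 1.44 CPM (SD, n = 4), with a log2 change of 4.08 ± 0.56 (edgeR adjusted p = 0.0405). Igkv6-29 had 4, 6, 0 and 0 counts at 16.5 weeks and 71, 59, 17 and 11 at 86 weeks, with no overlap, and a log2 change of 3.84 ± 0.54 (edgeR adjusted p = 0.0405). In kidney Igkv6-29 had 22, 4, 7 and 8 counts against 69, 86, 23 and 9, and did not pass (log2 difference 1.83 ± 0.49, edgeR adjusted p = 0.290). No muscle call remained without 16.5-week mouse 14 or 15 or without 86-week mouse 11, 12 or 14, and 1 remained without 86-week mouse 17, the library with left ventricle markers. Over all genes the calls in these fits were 10, 1, 5, 1, 11 and 8, against 8 in the main fit.

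In left ventricle 0 of 199 members tested were called by edgeR, where 0.0741% of 44546 genes were (0.0673% higher and 0.00673% lower), and 7 members had an unadjusted p under 0.05, as 3.37% of all genes did. DESeq2 also called 0 (6 at an unadjusted p under 0.05). Igkv6-20 there had 0, 4, 0 and 12 counts at 16.5 weeks and 0, 8, 0 and 7 at 86 weeks, and Ighv1-64 had 8, 13, 9 and 6 against 3, 18, 11 and 17. At these counts, which are those of the pseudogene baseline, a change of V segment RNA was not detected. The age change differed between tissues for 0 of 297 members tested by edgeR (25 at an unadjusted p under 0.05, and 0.0319% of 46984 genes called), so no segment was shown to change in 1 tissue more than in another.

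**Figure D2:**
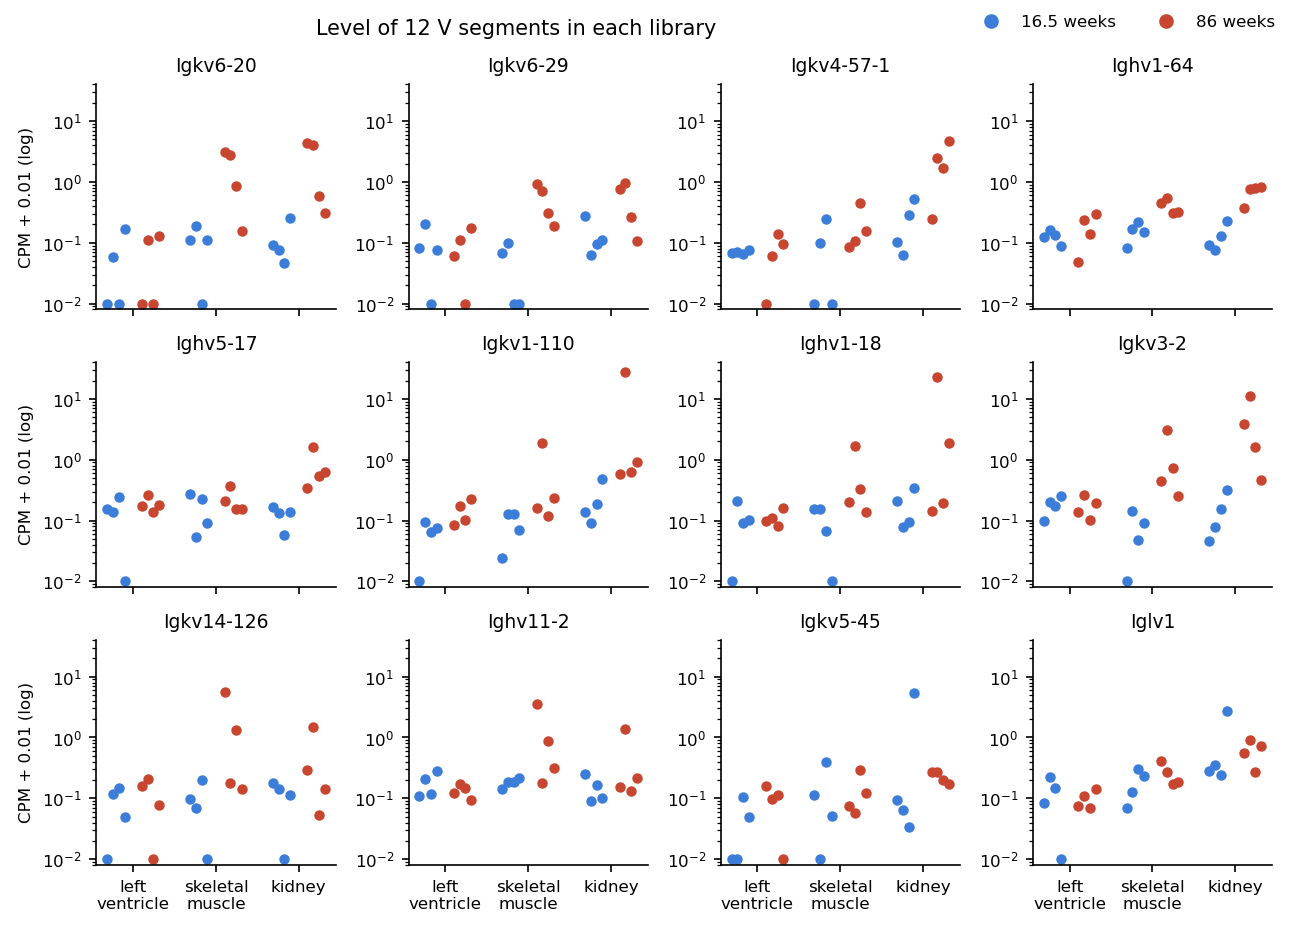
Level of 12 V segments in CPM + 0.01 on a log axis, by tissue, with 1 point per library, 16.5-week mice in blue and 86-week mice in red. The top row and Ighv5-17 are the segments that passed for age, and the others reach their highest level in 1 or a few libraries, such as Igkv5-45 with 414 counts in the kidney of 16.5-week mouse 20.

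Across all members, with no filter on low counts, functional segments in kidney were shifted toward higher levels with age and V pseudogenes much less. Of the 218 functional members 80.3% had a positive log2 difference, with a median of 0.95, and 47.7% were at 1 or more. Of the 127 pseudogene members 60.6% were positive with a median of 0.17, and over all 55176 genes fitted 54.6% were positive with a median of 0.04. In muscle the medians were 0.49 for functional segments, 0.24 for pseudogenes and 0.02 for all genes. In left ventricle they were 0.27, 0.12 and 0.01. The shares at a log2 difference of 1 or more were 30.7% of functional and 22.8% of pseudogene members in muscle, and 16.5 and 13.4% in left ventricle. These are descriptions, since members of 1 library share its level and its clones.

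**Figure D3:**
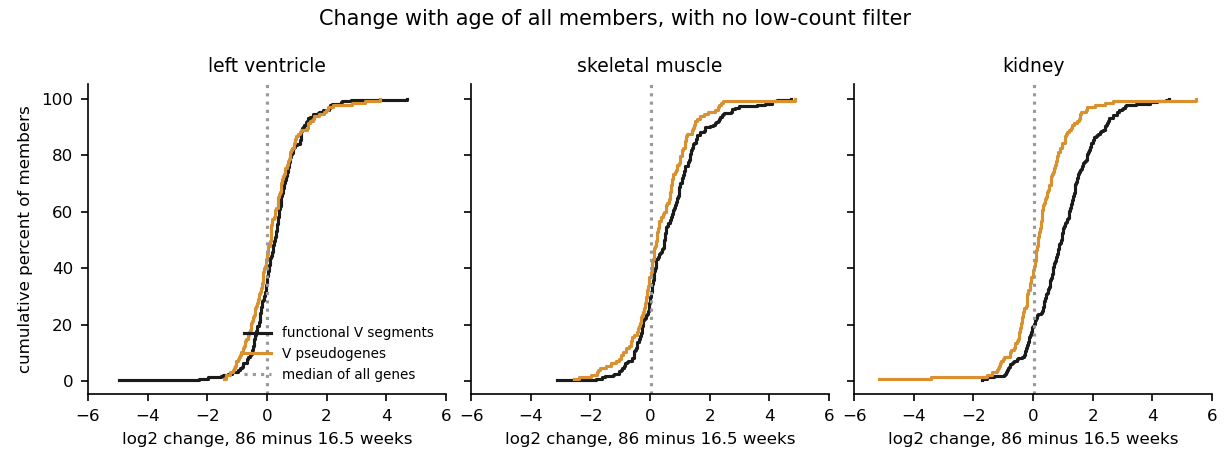
Cumulative percent of members against their log2 difference (86 minus 16.5 weeks) in a fit with no low-count filter, for functional V segments (black) and V pseudogenes (orange), with the median of all genes dotted. The 2 curves lie close in left ventricle and farthest apart in kidney, where the medians are 0.95 and 0.17.

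V counts were concentrated on fewer segments in the 4 aged kidneys, 3 of the aged muscles and 1 young kidney than in any left ventricle. Evenness is given as the effective number of segments, an unbiased inverse Simpson index over the counts of all 348 V rows in a library. It equals the number of segments that would give the same concentration if all were used alike. In left ventricle it was 209, 265, 251 and 224 at 16.5 weeks and 262, 242, 253 and 270 at 86 weeks. In muscle it was 240, 253, 214 and 212 at 16.5 weeks and 42.3, 84.9, 159 and 247 at 86 weeks, so aged mouse 17 again lay among the young. In kidney it was 232, 226, 248 and 57.3 at 16.5 weeks and 64.4, 21.2, 94.3 and 81.2 at 86 weeks. The means at 16.5 and 86 weeks were 230 ± 19.8 and 133 ± 89.9 (SD, n = 4) in muscle and 191 ± 89.5 and 65.3 ± 31.8 in kidney, and neither difference passed (exact permutation p = 0.114 each, adjusted 0.171). In left ventricle they were 237 ± 25.3 and 257 ± 12.1 (permutation p = 0.229, adjusted 0.257). Kidney lay below left ventricle in 7 of 8 mice, by 119 on average (exact permutation p = 0.0234, adjusted 0.0703). Counts at the pseudogene baseline spread evenly over all segments and raise this number by its construction.

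**Figure D4:**
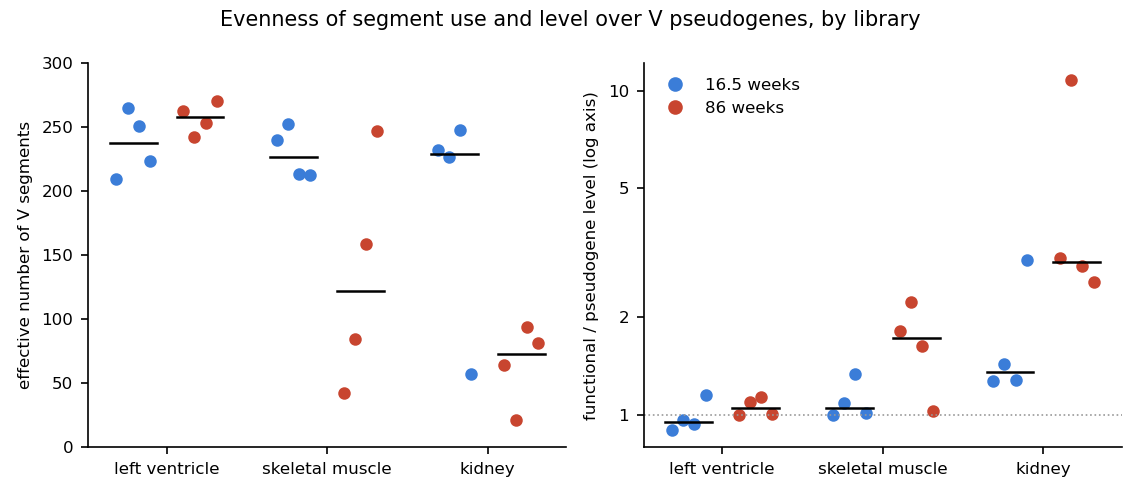
Effective number of V segments (left, linear axis from 0) and functional over pseudogene level (right, log axis) per library, with 16.5-week mice in blue, 86-week mice in red and a bar at the median of 4. The 8 left ventricle libraries lie between 209 and 270, and the kidney of 86-week mouse 12 is lowest at 21.2 and highest in the ratio at 10.7.

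The leading segments differed from mouse to mouse. In the kidney of 86-week mouse 12 Igkv1-110 had 2477 counts, 15.7% of the functional V counts (Wilson 95% interval 15.2 to 16.3%). Ighv1-18 had 2050 counts, 13.0%, and Igkv3-2 had 1017, 6.46%. Per kilobase these were 336, 317 and 146 times the pseudogene level. In the other 3 aged kidneys Igkv1-110 had 52, 57 and 84 counts and Ighv1-18 had 12, 17 and 171 (mice 11, 14 and 17). Ighv1-18 was second in the kidney of mouse 17 as well, at 3.64% of its functional V counts and 21.2 times the pseudogene level. Their log2 age differences of 4.16 ± 1.21 and 4.55 ± 1.27 did not pass (edgeR adjusted p = 0.339 and 0.310).

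In the kidney of aged mouse 11 the first were Igkv6-20 with 400 counts (8.41% of functional V counts), Igkv3-2 with 353 and Igkv4-63 with 233. In aged mouse 14 it was Igkv6-25 with 372 counts (7.80%), a segment with 14, 43 and 7 counts in the other aged kidneys. In aged mouse 17 it was Igkv4-57-1 with 436 (9.27%). The kidney of 16.5-week mouse 20 was led by Igkv5-45 with 414 counts (10.2%), Iglv1 with 216 and Ighv14-4 with 176. Igkv5-45 had 7, 4 and 2 counts in the other young kidneys and 15 to 24 in the aged ones. These segments were named after their values were seen, as the first of their libraries. In the library of young mouse 20, 39 functional segments lay above the highest pseudogene per kilobase, against 3, 6 and 1 in the other young kidneys and 42, 112, 51 and 45 in the aged ones. Wilson intervals cover counting error only.

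In muscle 8, 33, 17 and 0 functional segments of aged mice 11, 12, 14 and 17 lay above the highest pseudogene, against 2, 0, 6 and 0 in young mice 14, 15, 19 and 20. In left ventricle the number was 0 to 7, close to the 8 of aged muscle 11, but this count depends on the single highest pseudogene of a library. Above 5 times the pseudogene level, aged muscle 11 had 8 functional segments and the left ventricles had 0 or 1. Its first segment lay at 56.7 times that level. The muscle of mouse 11 was led by Igkv14-126 with 439 counts (14.1% of functional V counts, Wilson interval 12.9 to 15.4%) and Ighv11-2 with 284 (9.13%). The same 2 segments were high in the muscle of mouse 14, at 75 and 49 counts. In the kidneys of these mice they had 26 and 13 counts (mouse 11) and 4 and 11 counts (mouse 14). In mouse 12 the order was reversed, with 135 and 123 counts in kidney and 14 and 14 in muscle. By age neither passed in muscle, with log2 differences of 4.26 ± 1.08 and 2.73 ± 0.76 (edgeR adjusted p = 0.492 and 0.607).

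Some leading segments were shared by the kidney and muscle of 1 mouse. The segments that led in the kidney of mouse 12 had 159 (Igkv1-110), 140 (Ighv1-18) and 259 (Igkv3-2) counts in its muscle. They had 13, 8 and 20 counts in its left ventricle. In the 3 other aged muscles Igkv1-110 had 6 to 14, Ighv1-18 had 8 to 18 and Igkv3-2 had 15 to 41 counts. Igkv3-2 was also high in the kidneys of mice 11 and 14 (353 and 146 counts) and so was not particular to mouse 12. Igkv1-122 had 469 counts in its kidney and 232 in its muscle, and 0 to 10 and 0 to 21 in the kidneys and muscles of the other aged mice. Igkv6-20 had 400 and 245 counts in the kidney and muscle of mouse 11. It had 360 and 231 in those of mouse 12 and so was not particular to 1 mouse. Igkv6-25 and Igkv4-57-1, which led in the kidneys of mice 14 and 17, had 6 and 9 counts in their muscles.

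Over the 218 functional segments the correlation of log2(CPM + 0.1) between kidney and muscle of the same aged mouse was 0.37, 0.61, 0.38 and 0.13 for mice 11, 12, 14 and 17. CPM in these correlations were scaled to library totals without TMM factors. Between kidneys and muscles of different aged mice the correlation ran from 0.06 to 0.50, and the same-mouse value was not always the highest. Of the 4 aged kidneys, those of mice 12 and 14 correlated most with the muscle of their own mouse. The kidneys of mice 11 and 17 correlated more with the muscle of mouse 12 (0.50 and 0.28) than with their own. Correlations of kidney with left ventricle of the same aged mouse were 0.13, 0.24, 0.20 and 0.14. They are across segments and are descriptions, since segments share the depth of a library. The labels do not state whether libraries of 1 tissue were prepared together.

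**Figure D5:**
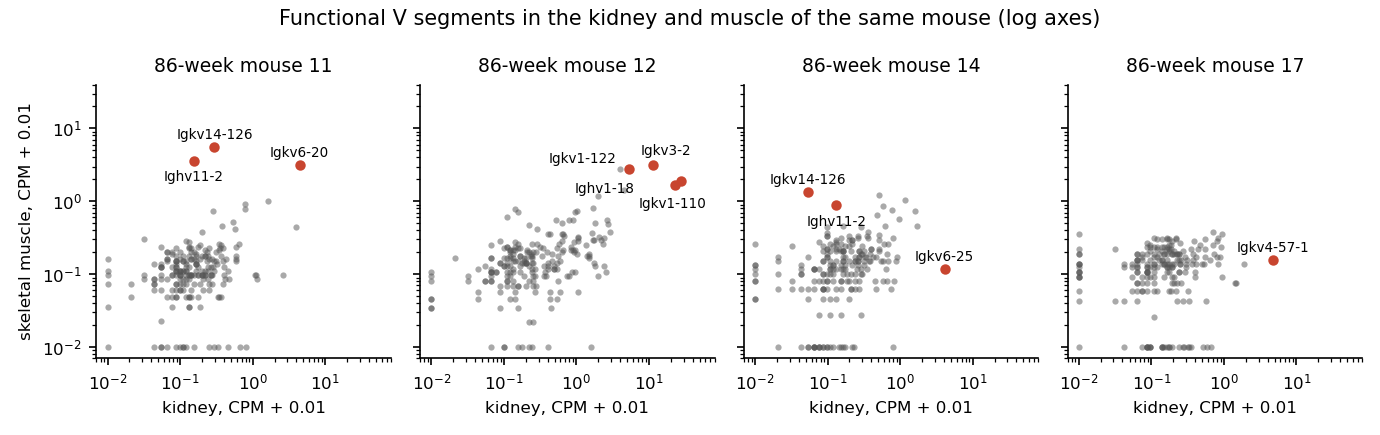
CPM + 0.01 of each of the 218 functional V segments in kidney (horizontal) and skeletal muscle (vertical) of the 4 mice aged 86 weeks, on log axes, with leading segments in red. In mouse 12 Igkv1-110, Ighv1-18, Igkv3-2 and Igkv1-122 are high in both tissues, while Igkv14-126 and Ighv11-2 in mice 11 and 14 are high in muscle and low in kidney.

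Between tissues 53 members were higher in kidney than in left ventricle and 3 were lower, of 297 tested, where 33.3% of 46984 genes were called, 19.1% higher and 14.2% lower. The share of members called was below that of all genes, and the direction was nearly uniform. All 53 higher members were functional, of 206 tested, and 0 of 91 pseudogenes tested were higher. Named after their values were seen, the lower members were the functional Ighv1-49, at 2 to 12 counts in the kidneys, and the pseudogenes Ighv4-2 and Ighv5-21. By locus the calls were 22 heavy, 33 kappa and 1 lambda. The smallest adjusted p belonged to Igkv4-57-1, with a log2 difference of 3.45 ± 0.53 (edgeR adjusted p = 4.70e-06), and Iglv1 differed by 2.87 ± 0.53 (edgeR adjusted p = 6.12e-05). Against muscle, kidney was higher for 35 members and lower for 4, where 43.3% of genes were called, 21.9% higher. Without 16.5-week mouse 20 the calls of kidney against left ventricle and against muscle were 34 and 24, and without 86-week mouse 12 those against left ventricle were 37.

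Muscle exceeded left ventricle for 3 members, Igkv6-20, Ighv7-1 and Ighv11-2, and was lower for 0, where 25.9% of genes were called. At an unadjusted p under 0.05 the count in either direction was 18, and DESeq2 called 3 (20 unadjusted). Their log2 differences were 2.73 ± 0.79, 1.17 ± 0.40 and 1.55 ± 0.55 (edgeR adjusted p = 0.00908, 0.0283 and 0.0391). With the mouse as a block Ighv11-2 was at an adjusted p of 0.0609 (edgeR). The count was 5 without 16.5-week mouse 14 and 7 without 86-week mouse 17.

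By locus, functional kappa segments stood further over the baseline than heavy chain segments in all 4 aged kidneys. In the kidney of aged mouse 12 kappa segments were at 13.5 times and heavy chain segments at 8.49 times the pseudogene level. In the other aged kidneys these were 3.64 and 2.54 (mouse 11), 3.55 and 2.31 (mouse 14) and 2.82 and 2.33 (mouse 17). The same order held in the kidney of 16.5-week mouse 20 (3.45 and 2.35) and the muscles of 86-week mice 11, 12 and 14. In those muscles the values were 1.86 and 1.76, 2.45 and 2.05, and 1.70 and 1.59. The order was reversed in the kidneys of 16.5-week mice 14 (1.13 and 1.39), 15 (1.39 and 1.44) and 19 (1.14 and 1.40). It was also reversed in the other muscles. In left ventricle kappa lay at 0.698 to 1.10 and heavy at 1.02 to 1.42 times the pseudogene level. Kappa segments lie in both orientations at their locus, and the 38 on the plus strand were at 22.4 and the 62 on the minus strand at 7.88 times the pseudogene level in the kidney of mouse 12. In the other 3 aged kidneys the values were 2.67 to 4.38 and 2.91 to 3.69. The plus strand value of mouse 12 includes its leading kappa segments Igkv1-110 (2477 counts) and Igkv3-2 (1017 counts). The part of orientation in these levels was not tested.

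Mouse lambda light chains come from few V segments, here Iglv1, Iglv2 and Iglv3. Iglv1 had 23, 25, 19 and 216 counts in the young kidneys and 50, 81, 24 and 66 in the aged ones. The highest value belonged to a 16.5-week mouse, and the log2 age difference was -0.23 ± 0.68 (edgeR adjusted p = 0.961). Iglv2 and Iglv3 had at most 14 and 36 counts in any library. Iglv1 and Iglv2 are 96.7% identical over 366 bases, so the split of their counts is uncertain.

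Other heavy chain segments with a high mean level were high in 1 to 3 kidneys. Ighv1-53 had 411 counts in the kidney of aged mouse 12 and 120 in its muscle, with 96, 34 and 29 counts in the other aged kidneys. Ighv14-4 had 148, 177, 32 and 21 counts in the aged kidneys and 176 in that of 16.5-week mouse 20, where the other young kidneys had 4 to 12. Ighv1-26 had 32, 233, 26 and 85 counts in the aged and 20, 19, 15 and 59 in the young kidneys. Ighv3-6 had 213 counts in aged mouse 12 and 91 in young mouse 20. None of these 4 passed for age in kidney, with edgeR adjusted p of 0.289, 0.915, 0.594 and 0.846. Ighv1-26 is 96.9% identical to Ighv1-18 over 351 bases, and 51.0% of its 50-base windows occur in no other V segment. The split of counts between Ighv1-26 and Ighv1-18 is therefore uncertain.

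Constant genes are spliced to V segments. Their summed level was high in the same kidneys as that of V segments, and in muscle it followed V segments in part. In left ventricle it was 10.4 to 12.7 CPM at 16.5 weeks and 13.8 to 19.1 CPM at 86 weeks. In muscle it was 22.7, 44.7, 132 and 60.8 CPM at 16.5 weeks and 110, 154, 156 and 82.7 CPM at 86 weeks, so young mouse 19 lay above aged mice 11 and 17. Igkc, the kappa constant exon, had 230, 165, 228 and 1579 counts in the young kidneys and 2315, 12680, 2344 and 2256 in the aged ones, and the high young value was again mouse 20. In muscle it had 16, 48, 65 and 35 counts at 16.5 weeks and 972, 1969, 496 and 58 at 86 weeks, and in left ventricle 22 to 87 at both ages. Igkc did not pass for age (edgeR adjusted p = 0.178 in muscle and 0.294 in kidney). Of 12 constant genes 1 passed in each tissue by edgeR (DESeq2 called 2 in muscle and 1 in each other tissue), Igha in kidney (log2 change 2.46 ± 0.40, edgeR adjusted p = 0.0337) and Ighg2c in muscle and left ventricle. In left ventricle Ighg2c rose from 93, 146, 114 and 87 to 372, 333, 523 and 293 counts (log2 change 1.77 ± 0.18, edgeR adjusted p = 1.43e-04) where functional V segments lay at the baseline. Ighm had 1174 to 6343 counts in the young muscles, where Igkc had 16 to 65.

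Of the joining segments 8 of 8 tested in kidney had a positive log2 age difference, with a median of 1.80, and 0 passed in edgeR or DESeq2 (6 and 7 at an unadjusted p under 0.05). Of all genes tested in kidney 53.5% were positive. The low-count filter kept 3 joining segments in muscle, all positive, and 1 in left ventricle, at -0.20. Segments high in some kidneys pass this filter more readily, so the 8 do not stand for all joining segments. Igkj2 had 7, 7, 7 and 41 counts in the young kidneys and 100, 221, 49 and 69 in the aged ones. Among 12 plasma cell genes 10 had a positive difference in kidney, with a median of 0.27, and 0 passed in edgeR or DESeq2 (4 and 3 at an unadjusted p under 0.05). Jchain, which links IgA and IgM into polymers, had 108, 97, 159 and 473 counts in the young and 508, 2462, 531 and 644 in the aged kidneys (edgeR adjusted p = 0.310). Of the surrogate light chain genes Igll1, Vpreb1, Vpreb2 and Vpreb3, 0 passed in edgeR or DESeq2 (1 at an unadjusted p under 0.05 in each) in kidney. Pigr, the receptor that carries IgA across epithelia, differed by 0.60 ± 0.12 on the log2 scale in kidney and did not pass in edgeR (adjusted p = 0.0919), while DESeq2 called it.

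Summed over 13 B cell markers, Ms4a1, Cd79a and Pax5 among them, the level was 15.7 to 20.4 CPM in young and 21.6 to 24.2 CPM in aged kidneys, with no overlap. It was 19.4 to 21.8 and 20.2 to 22.0 CPM in muscle and 20.7 to 22.3 and 21.1 to 27.1 CPM in left ventricle. In kidney 11 of 13 had a positive log2 difference, with a median of 0.52, and 0 passed in edgeR or DESeq2 (6 at an unadjusted p under 0.05 in each). Cd79a, a signalling subunit of the B cell receptor, had 44, 45, 72 and 69 counts in the young and 74, 106, 106 and 138 in the aged kidneys (log2 difference 0.74 ± 0.20, edgeR adjusted p = 0.297). None of the 13 was at 0 in any library. The 9 plasma cell markers summed to 67.7 to 80.6 CPM in young and 61.3 to 115 CPM in aged kidneys, with the highest value in mouse 12. The 9 T cell markers summed to 7.02 to 10.7 CPM in young and 11.7 to 16.6 CPM in aged kidneys with no overlap, and edgeR called 0 of 9 and DESeq2 2 of 9 (7 at an unadjusted p under 0.05 in each). The part of these markers in the V segment results was not tested.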

How the data were processed

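The deposited table holds whole-number read counts per gene in 24 libraries. Per the submitters' processing notes, STAR 2.7.6a, StringTie 2.1.1 and GRCm38.p6 were used on the reads. The counting step, its use of strand and the annotation release are not given in the sources used here. Reads that fit several near-identical V segments, or a gene on the other strand, may therefore be split in ways that cannot be checked. V rows were matched to GENCODE M21 by gene identifier (348 of 348), and sequences come from its transcripts, with no genome sequence used here.

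Within each tissue the whole table was tested with edgeR 4.0.16 (R 4.3.3) by its quasi-likelihood test with TMM factors, its default low-count filter and terms for age and sex. Tissues were compared in 1 fit of 24 libraries. P-values were adjusted over all genes tested by Benjamini-Hochberg, with a threshold of 0.05. CPM values use library totals multiplied by the TMM factors, except in the correlations between tissues and where stated. Sums, effective numbers and ratios were compared by exact two-sided permutation tests, between ages over 4 against 4 mice and between tissues over sign flips of 8 within-mouse differences (smallest p 0.00781). Shares have Wilson 95% intervals. The fitting step was tested on simulated data.

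Mice recur across tissues under the same number, per the labels. Deviations of same-mouse libraries from their group means correlated at 0.036 to 0.300 over 24 pairs, and the mouse was used as a block in an alternative.

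The members and gene lists were chosen with earlier results of these data known, and some list results are not reported here. Named segments were those passing for age, the 6 heavy, 6 kappa and 3 lambda segments with the highest mean level per kilobase, those with the highest ratio of top library to median, and the rows nearest to 50 counts. Alternatives were DESeq2 1.42.0, its size factors, no filter, no sex term, members of 500 or more counts, a single fit, other diversity and scaling measures, and leaving out each mouse.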

Additional observations from a re-analysis of the deposited data

Results flagged for a closer look

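In groups of 4 libraries, the highest or lowest library stood apart from the nearest other, relative to the group's range, by more than Dixon's 95% critical value in 26 of 126 groups examined. Chance flags about 5% of groups, but some segments were named because 1 library was far above their median or because they passed for age, so the number of groups cannot be set against that share.

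The kidney of 16.5-week mouse 20 stood above the other 3 young kidneys in summed V level (61.0 CPM, next 31.1), in functional over pseudogene level (2.998, next 1.43) and in Ighv1-26 (0.752 CPM), Ighv14-4 (2.24 CPM), Ighv3-6 (1.16 CPM) and Iglv1 (2.75 CPM). It stood below them in the effective number of segments (57.3, next 226).

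The kidney of 86-week mouse 12 stood above the other aged kidneys in summed V level (184 CPM, next 62.2) and in functional over pseudogene level (10.7, next 3.05). The same held for Igkv1-110 (27.5 CPM), Ighv1-18 (22.8 CPM), Igkv1-122 (5.22 CPM), Ighv3-6 (2.37 CPM), Igkv14-126 (1.502 CPM) and Ighv11-2 (1.37 CPM). In the muscle of this mouse Igkv3-2 (3.0996 CPM), Igkv1-122 (2.78 CPM), Igkv1-110 (1.90 CPM), Ighv1-18 (1.68 CPM) and Ighv1-53 (1.44 CPM) stood above the other aged muscles.

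In the kidney of 86-week mouse 11 Ighv1-64 was lowest of its group at 0.364 CPM, with the next at 0.767. The remaining values came from at most 25 counts each. Ighv3-6 was at 0.443 CPM in the muscle of 16.5-week mouse 19, at 0.446 CPM in that of 86-week mouse 14 and, as the lowest, at 0.0685 CPM in the left ventricle of 16.5-week mouse 19. Ighv1-53 was at 0.151 CPM in the left ventricle of 86-week mouse 17, and Iglv3 was at 0.0467 CPM in that of 86-week mouse 14, where the other 3 had 0.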

How the results depend on the processing

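Of the alternatives run for the comparisons, 247 kept the direction and side of the threshold (counts within 1.5 times) and 39 did not. Kidney age calls (4) were 8 with DESeq2, 7 with its size factors, 0 with no low-count filter (71 at an unadjusted p under 0.05), 0 with no sex term (70 unadjusted) and 1 to 11 without 1 mouse. Over all genes the main kidney fit called 50 and these called 231, 47, 1, 0 and 19 to 69. Muscle age calls (2) were 0 in the single fit (30 unadjusted), 1 with DESeq2, 1 among members of 500 or more counts, 0 with no filter (36 unadjusted), 0 with no sex term (24 unadjusted) and 0 to 2 without 1 mouse. Over all genes the main muscle fit called 8, the single fit 25 and DESeq2 89. Muscle fits with no filter and with no sex term called 0 and 1 genes, and those without 1 mouse 1 to 43. Kidney against left ventricle gave 22 and kidney against muscle 18 calls among members of 500 or more counts, and 34 to 54 and 24 to 39 without 1 mouse. Muscle against left ventricle gave 2 to 7. With richness rarefied to 1531 counts in place of the effective number the muscle age difference reversed to 16.5 (exact permutation, adjusted p = 0.229). The effective number, kidney against left ventricle, ran from -139 to -104 without 1 mouse and, muscle against left ventricle, from -79.4 to -43.6, each passing without 16.5-week mouse 14 (exact permutation, adjusted p = 0.0469). The log2 ratio over pseudogenes, muscle against left ventricle, was 0.27 over olfactory receptor genes (exact permutation, adjusted p = 0.0938) and 0.30 to 0.47 without 1 mouse. Summed V level, kidney against muscle, was 0.998 on the log2 scale without TMM (exact permutation, adjusted p = 0.0469). The cause of these differences was not tested. For single segments 43 alternatives lost the call and 34 kept it.

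With the mouse as a replicate block the tissue calls were 53 (kidney against left ventricle), 32 (kidney against muscle) and 3 (muscle against left ventricle), and 0 for the age change by tissue (25 unadjusted without the block). The age comparisons could not be paired because ages share no mouse. A pseudogene-level segment holds 4.48 to 9.16 counts per library, which limits what can be seen of single segments.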
